A study of Saccharomyces cerevisiae with 6 samples.

Results

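The proteasome is the protease of the cytosol and nucleus that degrades proteins tagged with ubiquitin. Messenger RNA of its subunits, and of the transcription factor Rpn4 that activates their genes, was compared between 2 strains of the budding yeast Saccharomyces cerevisiae, a wild type (WT) and a strain whose actin carries R256C, the replacement of an arginine by a cysteine. The 34 genes were taken by name from the deposited count table, which has 7126 gene rows: 14 subunits of the 20S core, 10 of the base and 9 of the lid of the 19S particle, and RPN4. The rule takes them by function, and all 34 passed the filter on low counts. Both strains are labelled as the S288C background and were untreated. For each strain, 3 cultures described as biological replicates grew in rich medium (YPD) at 30 °C and were harvested while growing exponentially, at an optical density of 0.9. The series places the substitution at a methylated arginine of actin, in a study of transcription, and names the matching change in a human actin as pathogenic; the comparison asks which mRNAs differ between the strains. How the allele was introduced and how many independent isolates were grown were not stated in the labels, so the substitution and any other difference between the strains cannot be told apart.

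The 20S core is a barrel of outer rings of alpha subunits and inner rings of beta subunits, some of which carry the protease sites. The 19S particle caps the barrel. Its base holds a ring of ATPases, encoded by the RPT genes, that unfold the substrate, and the scaffold and ubiquitin receptor subunits. Its lid holds the subunit that removes ubiquitin. In yeast the subunit genes share a control sequence, the proteasome-associated control element, to which Rpn4 binds. Rpn4 protein is itself a short-lived substrate of the proteasome, so that its amount rises when degradation slows and subunit genes are then transcribed more. Protein was not measured here.

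The element, read as the letters GGTGGCAAA on either strand, was searched in the 300 bases before the start codon of each gene in the R64 genome. It was present upstream of 27 of the 33 subunit genes (81.8%), against 73 of 6007 protein-coding genes (1.22%). It lay 84 to 183 bases before the start codon (median 120.0), on the strand of the gene in 19 and on the other strand in 8. By subcomplex it was found for 6 of 7 alpha, 6 of 7 beta, 8 of 10 base and 7 of 9 lid genes, and these letters were not in the window of PRE5, PUP1, RPN8, RPN10, RPN13, SEM1 or RPN4. For each of the alpha ring, beta ring, base and lid, the gene with the lowest and the gene with the highest R256C over WT change among those with the element are shown, to set the same letters in genes that fell beside genes that did not. Each line gives 60 bases read 5′ to 3′ on the strand of the gene, with the element in capitals.
PRE6: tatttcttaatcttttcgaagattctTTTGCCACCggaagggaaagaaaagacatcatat
PRE9: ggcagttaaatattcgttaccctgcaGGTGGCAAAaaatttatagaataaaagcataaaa
PRE3: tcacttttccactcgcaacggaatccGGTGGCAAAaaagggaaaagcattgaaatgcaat
PUP3: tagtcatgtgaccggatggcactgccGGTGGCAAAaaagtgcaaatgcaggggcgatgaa
RPT1: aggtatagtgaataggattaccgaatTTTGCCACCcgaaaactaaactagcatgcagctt
RPN2: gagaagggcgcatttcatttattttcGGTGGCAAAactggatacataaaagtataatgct
RPN12: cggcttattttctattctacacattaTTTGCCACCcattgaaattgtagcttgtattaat
RPN11: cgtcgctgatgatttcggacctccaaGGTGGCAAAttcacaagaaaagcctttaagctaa
In R64 coordinates the windows were chrXV:255202-255261 (plus strand) for PRE6, chrVII:761207-761266 (plus) for PRE9, chrX:435019-435078 (plus) for PRE3, chrV:349496-349555 (minus) for PUP3, chrXI:174032-174091 (plus) for RPT1, chrIX:220786-220845 (minus) for RPN2, chrVI:252382-252441 (plus) for RPN12 and chrVI:153243-153302 (plus) for RPN11. PRE6, RPT1 and RPN12 carry it on the strand opposite to the gene, where it reads TTTGCCACC.

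The libraries held 8967232 to 16905818 reads in genes. WT replicate 2 stood apart from the other WT libraries. Its scaling factor was 0.900, against 0.995 to 1.04 in the others, and it was the highest WT library in 25 of the 33 subunit genes and the lowest in 7. Of 6337 genes tested across the genome, 1345 were higher and 1358 lower in R256C by the quasi-likelihood test of edgeR (Benjamini-Hochberg adjusted p below 0.05), 21.2% and 21.4% of those tested; with library totals alone as the scale the counts were 1639 and 886. The marker genes LEU2, URA3 and MET17 had 0 reads in all 6 libraries, while HIS3, LYS2 and TRP1 had reads in all. The MATa gene STE2, the receptor for alpha factor, was at 693 to 854 CPM, and its MATalpha counterpart STE3 at 2.43 to 6.02 CPM. RNA came from whole cultures, so a lower level in every cell and a lower level in part of the cells cannot be told apart.

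RPN4 mRNA was higher in R256C, whereas subunit mRNAs were lower or did not pass the test. RPN4 (YDL020C, chromosome IV, 415113 to 416708) had 423, 273 and 353 CPM (the reads of a gene scaled to a common library size) in the WT cultures, in the order of their replicate numbers, and 517, 509.9 and 492 CPM in the R256C cultures. Every R256C library lay above every WT library, and WT replicate 2 was the lowest of all. The means were 349.7 ± 74.9 CPM and 506 ± 13.0 CPM (SD, n = 3 each), which is 145% of WT (log2 fold change 0.53 with SE 0.16, adjusted p = 0.0246 in edgeR). The log2 fold change was 0.38 (adjusted p = 0.00263) without WT replicate 2. The call did not pass when WT replicate 3 or R256C replicate 1, 2 or 3 was left out, with adjusted p of 0.0725, 0.0769, 0.0722 and 0.0636 and log2 fold changes of 0.52 to 0.56.

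Of the 33 subunit genes, 16 fell in R256C, 0 rose and 17 did not pass (edgeR); in the direction of a fall 21.4% of all genes were called. At an unadjusted p under 0.05, 17 were lower and 1 was higher; DESeq2 called 16 lower and 1 higher, and limma-voom 16 and 0. The median log2 fold change was -0.32, against -0.01 over all genes tested, and 29 of the 33 values were below 0. The 16 falls ranged from -0.80 for RPT1 to -0.32 for RPN10 on the log2 scale, and none reached 2-fold. In 19 subunit genes all 3 R256C libraries lay below all 3 WT libraries, and in 1, RPN11, they lay above; over all genes the shares were 27.3% and 27.7%. Without WT replicate 2, 18 subunit genes were lower (29.5% of all genes) and 3 were higher (29.4%), namely PUP3, RPN13 and RPN11. Between 9 and 18 fell when 1 library was left out, the lowest counts being 9 without R256C replicate 3 and 10 without R256C replicate 2. In those fits 12.9% and 13.5% of all genes were called lower, so the calls over all genes dropped too.

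Of the 16 genes, 9 were called lower in all 14 fits, the alternatives of scaling, filter, model, left-out library and replicate block included, where 11.2% of all genes were. These were the alpha ring genes PRE6, PUP2 and PRE5, the ATPase genes RPT1, RPT3, RPT4 and RPT5, and the lid genes RPN12 and SEM1. The other 7, PRE3, PRE7, RPT2, RPN10, RPN6, RPN8 and RPN9, missed the threshold in 1 to 6 of the fits. RPN10 and RPN6 missed it in 6 fits each.

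**Figure D1:**
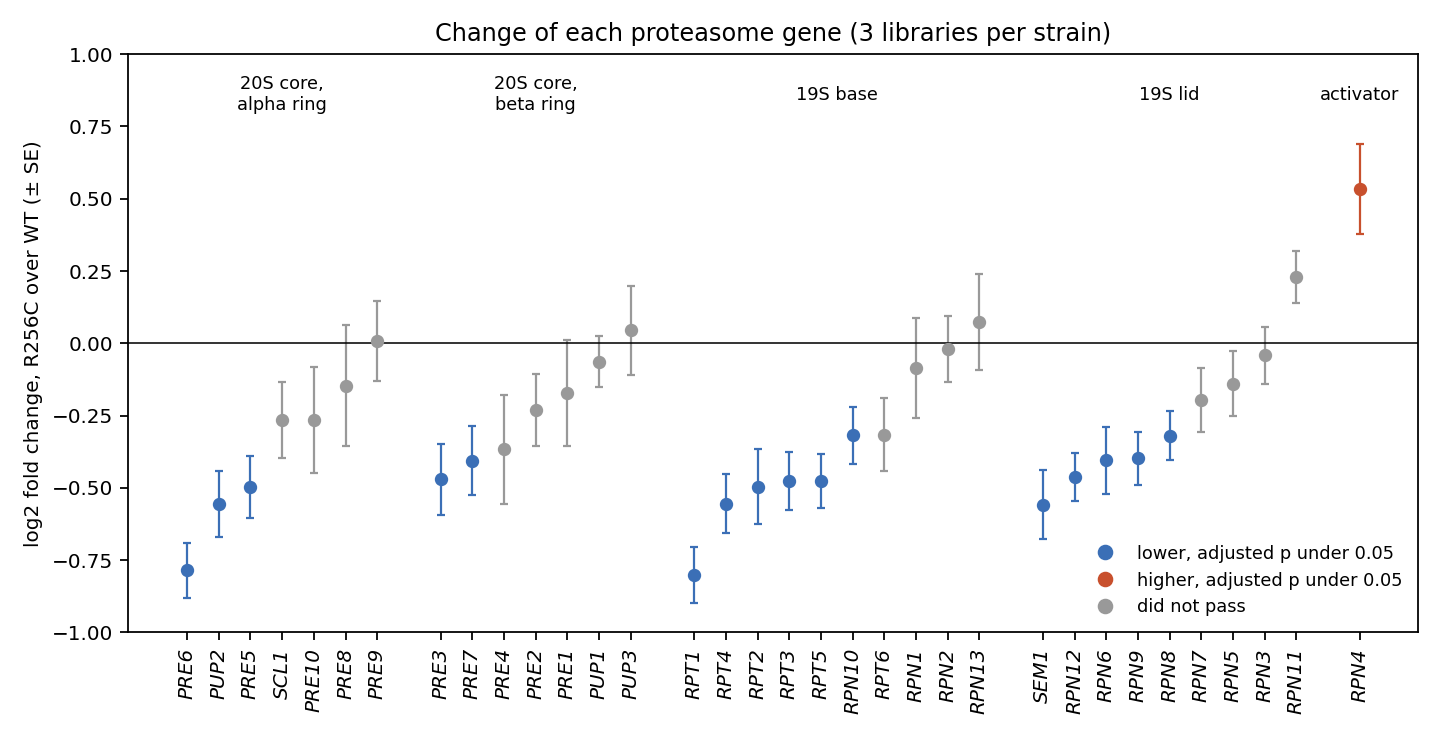
Log2 fold change of R256C over WT for each of the 33 subunit genes and RPN4, sorted within each subcomplex, with bars of 1 SE from the edgeR fit (3 libraries per strain). Blue points passed the test as lower, the red point as higher, and grey points did not pass; RPT1 at -0.80 and PRE6 at -0.79 are lowest, and RPN4 at 0.53 is highest.

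Summed over its genes, each subcomplex was lower in every R256C library than in every WT library. The 14 core genes summed to 3879, 4769.7 and 4066 CPM in WT replicates 1, 2 and 3 and to 3410.4, 3478 and 3352 CPM in R256C, a mean of 80.5% of WT. The 10 base genes summed to 5215, 4969.8 and 4977 CPM in WT and 4101, 4097 and 3951 CPM in R256C (80.1%). For the 9 lid genes the sums were 2730.1, 2792 and 2640.2 CPM and 2405, 2360.2 and 2289 CPM (86.4%). WT replicate 2 was the highest library for the core and the lowest WT library for the base, so that the ratio of base to core sums was 1.34, 1.04 and 1.22 in the WT libraries, a wider range than the 1.20, 1.18 and 1.18 of R256C. As a share of all gene reads, with no scaling factor, the 33 subunit mRNAs made up 1.19, 1.13 and 1.16% in WT and 1.02, 1.03 and 0.991% in R256C, and on this scale WT replicate 2 was the lowest of the WT libraries. The WT libraries differed more among themselves than the R256C libraries did. In 28 of the 33 genes the coefficient of variation was larger in WT (median 12.8%, against 3.74% in R256C). It was also larger in WT in 14 of 17 heat shock chaperone genes, 9 of 10 assembly chaperone genes and 6 of 9 genes for associated factors. Of 4 MATalpha genes it was larger in WT in 1. The count over all genes was not taken, so a larger WT spread is not shown to be particular to the subunits. Differences between subcomplexes were not tested.

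**Figure D2:**
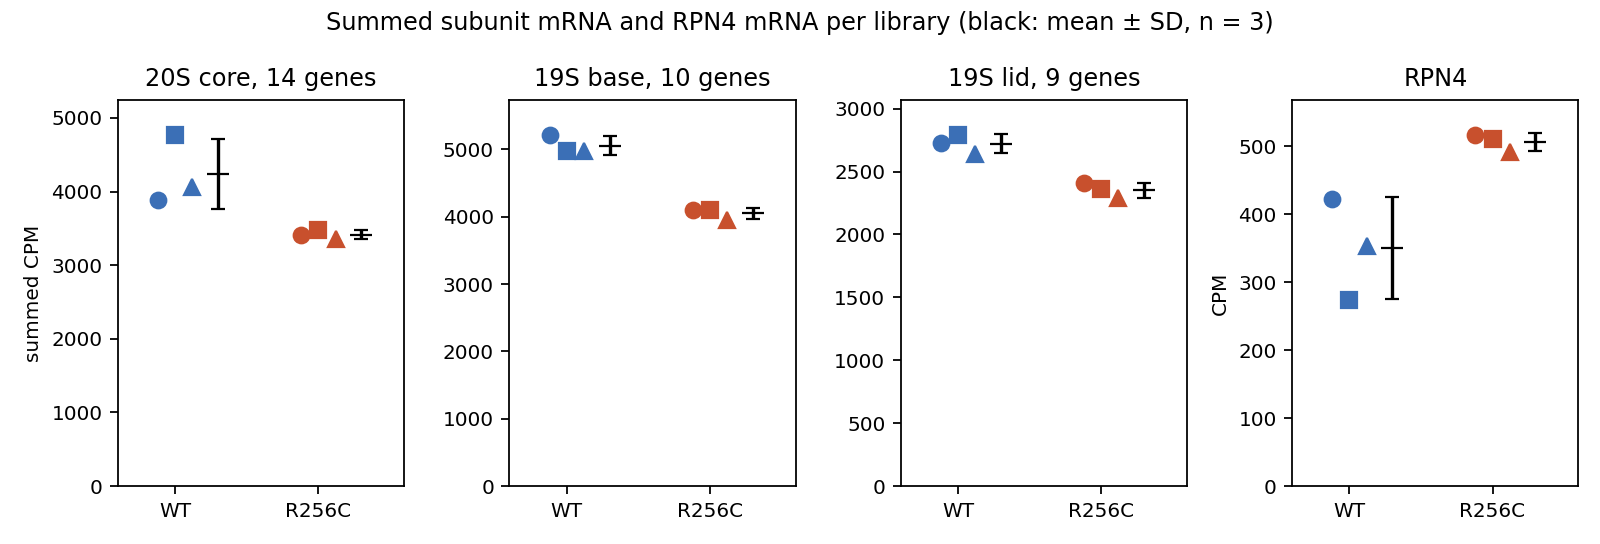
Summed CPM of the core, base and lid genes and CPM of RPN4 in each library, with circles, squares and triangles for replicates 1, 2 and 3, WT in blue and R256C in red, and black marks for the mean ± SD (n = 3). Core sums are 3879 to 4769.7 in WT and 3352 to 3478 in R256C, while RPN4 is at 273 to 423 in WT and 492 to 517 in R256C.

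Of the 7 alpha ring genes, whose products gate the entry to the barrel, 3 fell and 4 did not pass (median -0.27). The share of all genes called lower was 21.4%. PRE6 (YOL038W, chromosome XV, 255337 to 256101) was at 407, 454 and 440.2 CPM in WT and 259.6, 249 and 247 CPM in R256C. The groups were far apart, with R256C at 58.0% of WT (log2 fold change -0.79 with SE 0.095, adjusted p = 0.000443 in edgeR). PUP2 was at 342, 443 and 399 CPM in WT and 269.8, 268 and 268 CPM in R256C (log2 fold change -0.56 with SE 0.11, adjusted p = 0.00537 in edgeR), again without overlap. PRE5, an alpha ring gene without the exact element, was at 204, 245 and 197 CPM and 147, 161 and 150.1 CPM (log2 fold change -0.50 with SE 0.11, adjusted p = 0.00654 in edgeR). PRE9 codes for the alpha subunit that yeast can live without. Its values were 314, 433 and 335 CPM in WT and 336, 392 and 361 CPM in R256C, and the groups overlapped (log2 fold change 0.01 with SE 0.14, adjusted p = 0.969 in edgeR). SCL1 (-0.27, adjusted p = 0.135), PRE10 (-0.27, adjusted p = 0.271) and PRE8 (-0.15, adjusted p = 0.599) did not pass. In SCL1 the R256C libraries nonetheless all lay below WT. For PRE8 and PRE10, WT replicate 2 was well above the other WT libraries, at 186 CPM against 101 and 109 CPM for PRE8. Without that library their log2 fold changes were 0.18 and 0.0080, and that of SCL1 was -0.11.

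Of the 7 beta ring genes, 2 fell and 5 did not pass (median -0.23); 1 fell without WT replicate 3 or R256C replicate 1, and 0 without R256C replicate 2 or 3. The count of 2 lies near the 21.4% of all genes called lower, and in those left-out fits 12.9% to 15.1% of all genes were. The 3 protease sites lie in the products of PRE3, PUP1 and PRE2, and of these genes PRE3 passed the test. PRE3 (chromosome X, 435163 to 435926, with an intron), for the caspase-like site, was at 175, 241 and 194 CPM in WT and 150.3, 146 and 144 CPM in R256C (log2 fold change -0.47 with SE 0.12, adjusted p = 0.0156 in edgeR), with no overlap. PUP1, for the trypsin-like site, was at 169.9, 189 and 164 CPM and 165, 169 and 166 CPM, values that overlapped (log2 fold change -0.06 with SE 0.088, adjusted p = 0.581 in edgeR). PRE2, for the chymotrypsin-like site, was at 706, 868 and 793 CPM and 700.4, 674 and 642 CPM. All R256C values of PRE2 lay below WT, by a small margin, and the change did not pass (log2 fold change -0.23 with SE 0.12, adjusted p = 0.165 in edgeR).

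Among the beta genes without a protease site, PRE7 fell, from 297, 387 and 312 CPM to 239, 253 and 259 CPM (log2 fold change -0.41 with SE 0.12, adjusted p = 0.0247 in edgeR). PRE7 lost its call when WT replicate 3 or any 1 of the R256C libraries was left out (adjusted p 0.0557 to 0.0908). PRE4 was at 481, 277 and 407 CPM in WT and 326, 298 and 278 CPM in R256C. WT replicate 2 was the lowest of all 6 libraries here, unlike in the other core genes (log2 fold change -0.37 with SE 0.19, adjusted p = 0.146 in edgeR). Without WT replicate 2, PRE4 fell (-0.56, adjusted p = 0.000153). PUP3 was at 148, 224 and 154 CPM and 172, 188 and 183 CPM. The R256C libraries of PUP3 lay between WT replicate 2 and the other WT libraries (log2 fold change 0.04 with SE 0.16, adjusted p = 0.835 in edgeR), and without WT replicate 2 the gene was higher in R256C (0.26, adjusted p = 0.0123). PRE1 (-0.17, adjusted p = 0.479) did not pass, with WT replicate 2 at 205 CPM against 121 and 131 CPM.

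**Figure D3:**
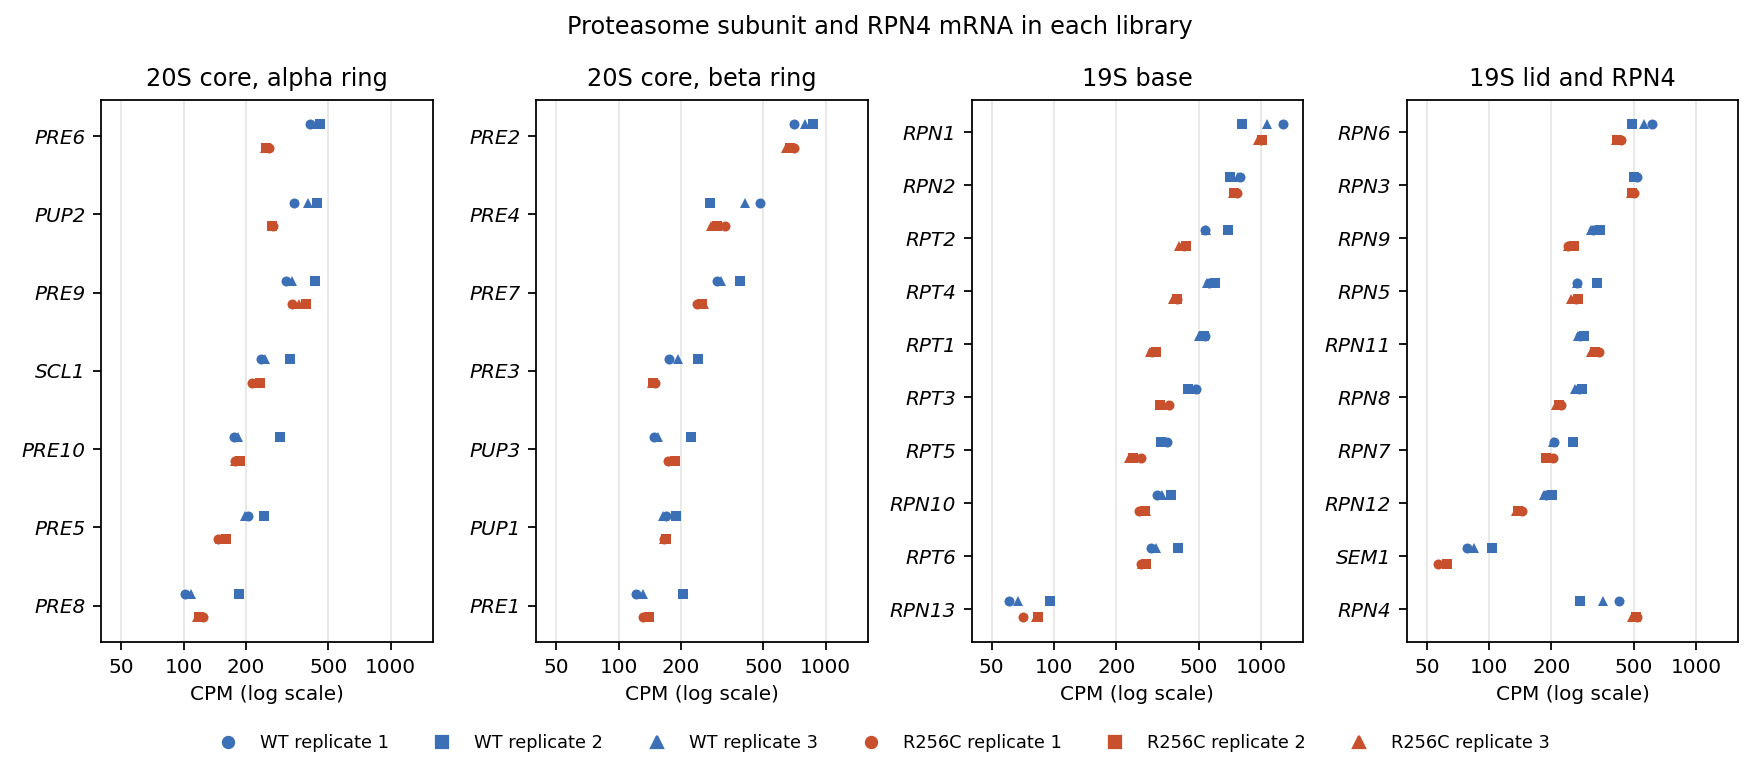
CPM (log axis) of each subunit gene and RPN4 in every library, WT in blue and R256C in red, with circles, squares and triangles for replicates 1, 2 and 3. In RPT1, PRE6 and RPT4 the 2 strains are clearly apart, while in PRE8, PRE10, PRE1 and PUP3 WT replicate 2 lies to the right of the other 5 libraries.

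Of the 10 genes of the 19S base, 6 fell and 4 did not pass (median -0.40).  All 6 RPT genes had every R256C library below every WT library, and 5 of them passed (median -0.49). Over all genes 27.3% had the R256C libraries below WT in this way, and 21.4% were called lower. RPT1 (YKL145W, chromosome XI, 174213 to 175616) fell from 536, 529.7 and 504 CPM to 299, 311 and 289.7 CPM (log2 fold change -0.80 with SE 0.097, adjusted p = 0.000432 in edgeR). R256C held 57.3% of the WT level, and the fall differed from that of PRE6 by less than either SE. RPT4 was at 559.7, 603 and 551 CPM in WT and 395, 395 and 376 CPM in R256C (log2 fold change -0.55 with SE 0.10, adjusted p = 0.00312 in edgeR). RPT2 (-0.50), RPT3 (-0.48) and RPT5 (-0.48) fell by amounts that differed by less than their SEs of 0.095 to 0.13. RPT6 was at 295, 397 and 312 CPM and 264, 278 and 266 CPM and did not pass (log2 fold change -0.32 with SE 0.13, adjusted p = 0.0719 in edgeR), although its groups did not overlap. RPT6 fell without WT replicate 1 (-0.40, adjusted p = 0.0317), and without WT replicate 2 its value was -0.18.

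Of the base genes that do not code for ATPases, RPN1, RPN2, RPN10 and RPN13, 1 fell and the median was -0.05. The count of 1 lies near the 21.4% of all genes called lower. RPN1 and RPN2 code for the large scaffold proteins of the base. RPN1 was at 1279, 812 and 1072 CPM in WT and 1004, 1012 and 968 CPM in R256C, so that the WT libraries spanned the R256C values (log2 fold change -0.08 with SE 0.17, adjusted p = 0.718 in edgeR). Without WT replicate 2, the lowest, RPN1 was lower in R256C (-0.24, adjusted p = 0.0392). RPN2 was at 792, 705 and 773 CPM and 766, 745 and 729 CPM. Its groups overlapped (log2 fold change -0.02 with SE 0.11, adjusted p = 0.900 in edgeR). RPN10 and RPN13 code for ubiquitin receptors. RPN10, whose product lies at the joint of base and lid, fell (log2 fold change -0.32 with SE 0.098, adjusted p = 0.0303 in edgeR), from 315, 366 and 331 CPM to 258, 274 and 279 CPM. The call was lost with a replicate block (adjusted p = 0.0505), with library totals (0.0883) and without WT replicate 3 or any 1 R256C library (0.0899 to 0.107). RPN13, the least abundant subunit mRNA per kb in WT, was at 60.8, 95.3 and 67.3 CPM and 70.6, 83.4 and 81.8 CPM and did not pass (log2 fold change 0.07 with SE 0.17, adjusted p = 0.738 in edgeR). It was higher in R256C without WT replicate 2 (0.29, adjusted p = 0.0199).

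Of the 9 lid genes, 5 fell and 4 did not pass (median -0.32), and 21.4% of all genes were called lower. Without R256C replicate 2 the lid count was 3, and without R256C replicate 3 it was 2. In those fits 13.5% and 12.9% of all genes were called lower. SEM1 (YDR363W-A, chromosome IV, 1202128 to 1202397), the smallest subunit gene, was at 78.3, 104 and 84.8 CPM in WT and 56.6, 62.3 and 62.3 CPM in R256C (log2 fold change -0.56 with SE 0.12, adjusted p = 0.00638 in edgeR). RPN12 was at 189, 200.2 and 183 CPM and 144, 138 and 134 CPM (log2 fold change -0.46 with SE 0.083, adjusted p = 0.00278 in edgeR). In both genes the strains were apart. RPN6, whose product clamps the lid to the core, fell from 609.9, 491 and 562 CPM to 433, 415 and 408 CPM (log2 fold change -0.40 with SE 0.12, adjusted p = 0.0227 in edgeR). Also lower were RPN9 (-0.40, adjusted p = 0.00914) and RPN8 (-0.32, adjusted p = 0.0176), the latter of which codes for the partner of the deubiquitinase Rpn11.

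RPN11 codes for that deubiquitinase, which removes ubiquitin from substrates as they are degraded. It stood against the other lid genes, at 274, 287 and 269 CPM in WT and 339, 325 and 310.4 CPM in R256C. Every R256C library lay above every WT library, and the change did not pass (log2 fold change 0.23 with SE 0.090, adjusted p = 0.0689 in edgeR). It passed as higher with DESeq2 (0.23, DESeq2 adjusted p = 0.0345), with library totals alone, with a filter at 10 CPM and without WT replicate 2. RPN3 had nearly equal levels, at 515, 501 and 503 CPM and 503, 488 and 485 CPM (log2 fold change -0.04 with SE 0.098, adjusted p = 0.754 in edgeR). RPN5 (-0.14, adjusted p = 0.344) and RPN7 (-0.20, adjusted p = 0.183) did not pass.

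Levels were compared between genes per kb of coding sequence, since longer mRNAs give more reads. In WT the subunit mRNAs ranged from 158 CPM per kb (RPN13) to 913 CPM per kb (PRE2), with a median of 314, and in R256C from 150.0 (RPN7) to 778 (PRE2), with a median of 263. PRE2 was the most abundant in both strains. The next were PRE6 in WT, at 567 CPM per kb, and PRE9 in R256C, at 467 CPM per kb; PRE6 was then at 329. The spread over the 33 genes, as a coefficient of variation of CPM per kb, was 43.0%, 41.6% and 45.1% in the WT libraries and 43.0%, 41.6% and 40.7% in R256C, so the strains overlapped. Within the base it was 29.7%, 30.8% and 27.6% in WT and 24.0%, 23.4% and 23.8% in R256C, where the strains did not overlap; that difference was not tested. RPN4 was at 219 CPM per kb in WT and 317 CPM per kb in R256C, below the median subunit in the former and above it in the latter. Across the 33 genes the log2 fold change had a Spearman rho of -0.448 with the WT level per kb and 0.00401 with coding length. These points share 6 libraries, and the WT level enters both quantities of the former.

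Changes were set beside the presence of the element, which played no part in the choice of genes. Of the 27 subunit genes with the element 12 fell (median -0.32), and of the 6 without it 4 fell (median -0.32): PRE5, RPN8, RPN10 and SEM1. Without it means that the exact letters were not in the 300 bases before the start codon. Apart from a search with the first 8 letters, variants of the letters and sites further upstream were not searched. Outside the proteasome 46 genes had the element, of which 45 were tested; 19 fell and 5 rose (42.2% and 11.1%, median -0.35). For 8 of these 46 it was the very site of a subunit gene, shared with the neighbour that is transcribed away from it. Of those 8, 7 fell: PMT1 (-0.80), beside RPN6, NOP14 (-0.57), beside RPN5, ALG13 (-0.49), beside RPT6, MPO1 (-0.47), beside SCL1, YTH1 (-0.36), beside RPN7, GCD1 (-0.35), beside RPT4, and YOL038C-A (-1.19), beside PRE6. YPI1, beside RPN11, did not pass (0.05). Of the subunit genes beside the 7, RPN6, RPT4 and PRE6 fell, while RPN5, RPT6, SCL1 and RPN7 did not pass. The other 38 genes held 33 sites, 5 of which served a pair of genes. Of the 37 of these genes that were tested, 12 fell and 5 rose (32.4% and 13.5%, median -0.25). The 5 that rose were TMC1 (1.12), DOC1 (0.67), GSF2 (0.38), HUA1 (0.30) and BDF2 (0.27). Among the 12 were genes of the same system, UBI4 (-0.92), ECM29 (-0.65), UBA1 (-0.46) and CDC48 (-0.36). Of 5726 tested genes with neither the element nor a place among the subunits, 22.5% fell and 20.6% rose (median -0.03).

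**Figure D4:**
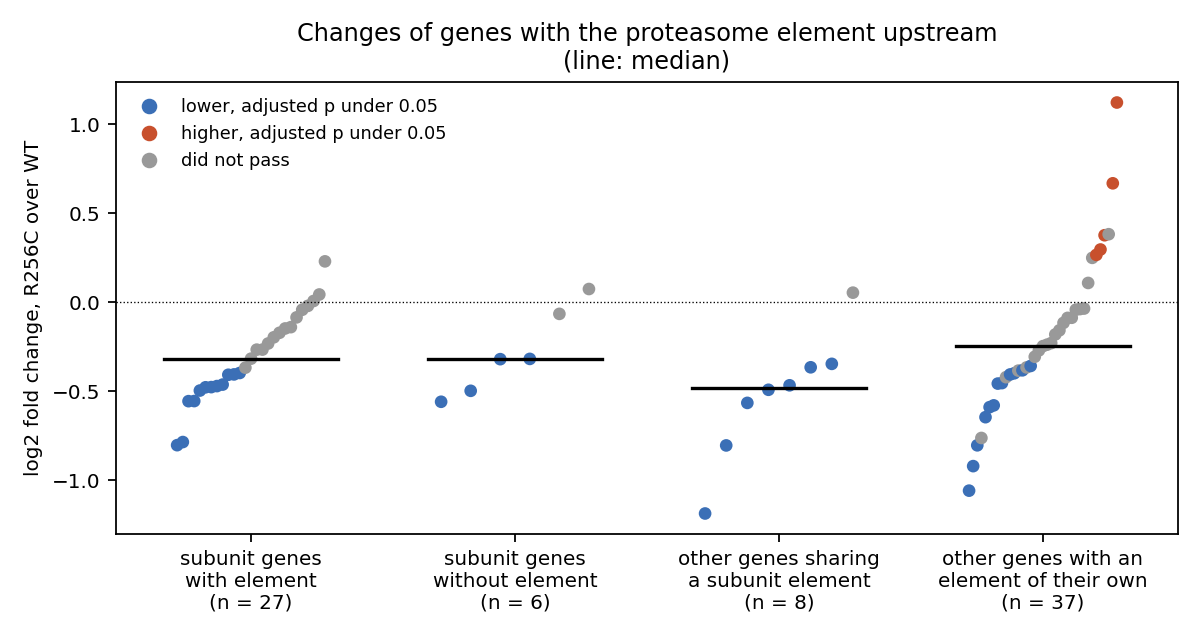
Log2 fold change of R256C over WT for genes with or without the element in the 300 bases before the start codon, with blue for lower, red for higher and grey for genes that did not pass, and a line at the median. Subunit genes with and without the element have medians of -0.32, and the highest point is TMC1 at 1.12.

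Genes for regulators of RPN4 transcription or of Rpn4 protein were lower or did not pass, while RPN4 itself rose. Of 7 genes, 5 fell (median -0.39), where 21.4% of all genes fell. PDR1, PDR3 and UBR2 were the 3 that fell with library totals alone, with a replicate block and without any 1 library other than WT replicate 2. In those fits 12.9% to 20.2% of all genes were called lower. With the block HSF1 had an adjusted p of 0.0749 and UBR1 of 0.0540; HSF1 also missed the threshold with a filter at 10 CPM (0.0512). HSF1, the heat shock factor, fell (-0.26, adjusted p = 0.0364), as did PDR1 (-0.73, adjusted p = 0.000700) and PDR3 (-0.40, adjusted p = 0.00525), the factors of multidrug resistance. PDR1 was at 158, 128 and 145 CPM in WT and 85.5, 85.7 and 89.2 CPM in R256C. YAP1, the factor of the oxidative stress response, did not pass (-0.09, adjusted p = 0.632), and was lower without WT replicate 2 (-0.21, adjusted p = 0.0377). UBR2 codes for the ligase that tags Rpn4 protein for degradation. It fell from 136, 107 and 125 CPM to 67.7, 72.7 and 67.4 CPM, with the groups well apart (log2 fold change -0.82 with SE 0.11, adjusted p = 0.000613 in edgeR). MUB1, for the partner of Ubr2, did not pass (-0.03, adjusted p = 0.800), and UBR1, for another ubiquitin ligase, fell (-0.39, adjusted p = 0.0293). The drug resistance element, read as TCCGCGGA or TCCGTGGA on either strand, was searched in the 600 bases before the start codon, since RPN4 is a textbook target of Pdr1 and Pdr3. It occurred 2 times upstream of RPN4, 442 and 399 bases before the start codon, and in 1.98% of 6005 genes at least once. The RPN4 windows (chrIV:417117-417176 and chrIV:417074-417133, minus strand) are given with the element in capitals; they overlap, and in the latter the element is on the strand opposite to the gene.
RPN4, first: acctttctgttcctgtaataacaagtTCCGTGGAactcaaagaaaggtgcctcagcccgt
RPN4, next: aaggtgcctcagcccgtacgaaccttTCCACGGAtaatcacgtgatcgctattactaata

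For the remaining genes of the ubiquitin and proteasome system, counts with all 6 libraries are read against the 21.4% of all genes that fell and the 21.2% that rose. Without WT replicate 3 or any 1 R256C library, 12.9% to 15.1% of all genes were called lower. Without WT replicate 2, 29.4% were called higher. With library totals alone 1639 of 6337 genes were higher, and with a filter at 10 CPM 1268 of 5528. Changes in the list counts between fits therefore go along with changes over all genes. Of 10 genes for assembly chaperones, which help to build the proteasome and are not part of it, 3 fell and 7 did not pass (median -0.29); 1 fell without R256C replicate 1 and 0 without R256C replicate 2 or 3. The count of 3 lies near the share over all genes. PBA1 (-0.53, adjusted p = 0.0134) and ADD66 (-0.41, adjusted p = 0.0150), which act on the alpha ring, and RPN14 (-0.33, adjusted p = 0.0366), which acts on the base, were the 3. With library totals alone ADD66 kept its call in edgeR, while PBA1 (adjusted p = 0.0586) and RPN14 (adjusted p = 0.0954) lost theirs. NAS2, for another base chaperone, had 16.4, 25.8 and 19.8 CPM in WT and 30.2, 27.1 and 28.5 CPM in R256C, all above WT, and did not pass (log2 fold change 0.47 with SE 0.17, adjusted p = 0.0514 in edgeR). NAS2 passed as higher with DESeq2, limma-voom, library totals and a filter at 10 CPM, and without WT replicate 2 (0.66, adjusted p = 0.000453). Without WT replicate 1, TMA17 did (0.74, adjusted p = 0.00853). Of 9 genes for factors associated with the proteasome, 4 fell and 1 rose (median -0.18). The count that fell was 2 without WT replicate 3 or R256C replicate 1 or 3. The count that rose was 2 without WT replicate 2, with library totals alone and with a filter at 10 CPM. ECM29 (-0.65, adjusted p = 0.00534), for a protein that links core and 19S particle, and FUB1 (-0.59, adjusted p = 0.00129), for a relative of a mammalian proteasome inhibitor, fell. TMC1, for an AN1-type zinc finger protein and with the element upstream, was the 1 that rose, from 104, 77.9 and 105 CPM to 226, 210.4 and 188 CPM (log2 fold change 1.12 with SE 0.13, adjusted p = 0.000410 in edgeR); its lowest R256C library was well above its highest WT library. Of 11 genes for shuttle factors and for the Cdc48 segregase, which pulls tagged proteins out of complexes, 4 fell and 7 did not pass (median -0.09). The count that fell was 2 without WT replicate 3 or any 1 R256C library. UFD1 and UFD3 were the 2 that rose without WT replicate 2 and with library totals alone, and UFD3 also rose with a filter at 10 CPM. The 4 were the Cdc48 cofactor genes SHP1 (-0.53, adjusted p = 0.00690) and NPL4 (-0.46, adjusted p = 0.00263), the shuttle factor gene DDI1 (-0.37, adjusted p = 0.0195) and CDC48 itself (-0.36, adjusted p = 0.0417).

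Ubiquitin is made from 4 genes. UBI4, the stress-induced gene that codes for a chain of ubiquitin units, fell from 249, 141 and 183 CPM to 102, 96.9 and 104 CPM, and the groups did not overlap (log2 fold change -0.92 with SE 0.18, adjusted p = 0.00469 in edgeR). RPL40A (-0.01, adjusted p = 0.984), RPL40B (-0.28, adjusted p = 0.292) and RPS31 (0.13, adjusted p = 0.726), in which ubiquitin is fused to a ribosomal protein, did not pass. In these 3 genes WT replicate 2 was the highest WT library. RPS31 had 1161, 2487 and 1299 CPM in WT and 1696, 1833 and 1883 CPM in R256C, and rose without it (0.55, adjusted p = 0.000199). Without WT replicate 2 the value of RPL40A was 0.24 and that of RPL40B -0.00093. RPL40A and RPL40B are close copies, so their separate values are uncertain, and the repeated units of UBI4 limit unique placement of its reads. Of 11 genes for the activating and conjugating enzymes, 3 fell and 3 rose (median -0.15). Both counts lie near the shares over all genes, and 5 rose without WT replicate 2, with library totals alone and with a replicate block. Of all genes, 29.4% were called higher without WT replicate 2. With library totals alone 1639 of 6337 genes were higher, and with the block 1217. UBC11 (-0.90, adjusted p = 0.000898), UBC13 (-0.50, adjusted p = 0.00699) and UBA1 (-0.46, adjusted p = 0.00635), the only activating enzyme gene of the list, fell. CDC34 (0.62, adjusted p = 0.00244), for the conjugating enzyme of the G1/S transition, UBC8 (0.52, adjusted p = 0.00380) and UBC5 (0.38, adjusted p = 0.0176) rose.

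Heat shock chaperones, which refold the proteins that the proteasome would otherwise degrade and whose genes answer to Hsf1, had a lower median than the subunits: 12 of 17 fell and 5 did not pass (median -1.02; 21.4% of all genes fell). Without WT replicate 2 the count was 17, and without any 1 R256C library it was 8. Of all genes, 29.5% were called lower in the former fit and 12.9% to 15.1% in the latter. The WT libraries differed widely in some of these genes (median coefficient of variation 24.5% in WT and 8.55% in R256C): HSP42, which did not pass, had 1703, 401 and 1124 CPM in WT and 572, 550.4 and 469 CPM in R256C. STI1 (-1.34, adjusted p = 0.000120), HSP26 (-1.42, adjusted p = 0.000765) and HSP82 (-1.02, adjusted p = 0.000961) were the genes with the smallest p. The 2 lists were not tested against each other.

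**Figure D5:**
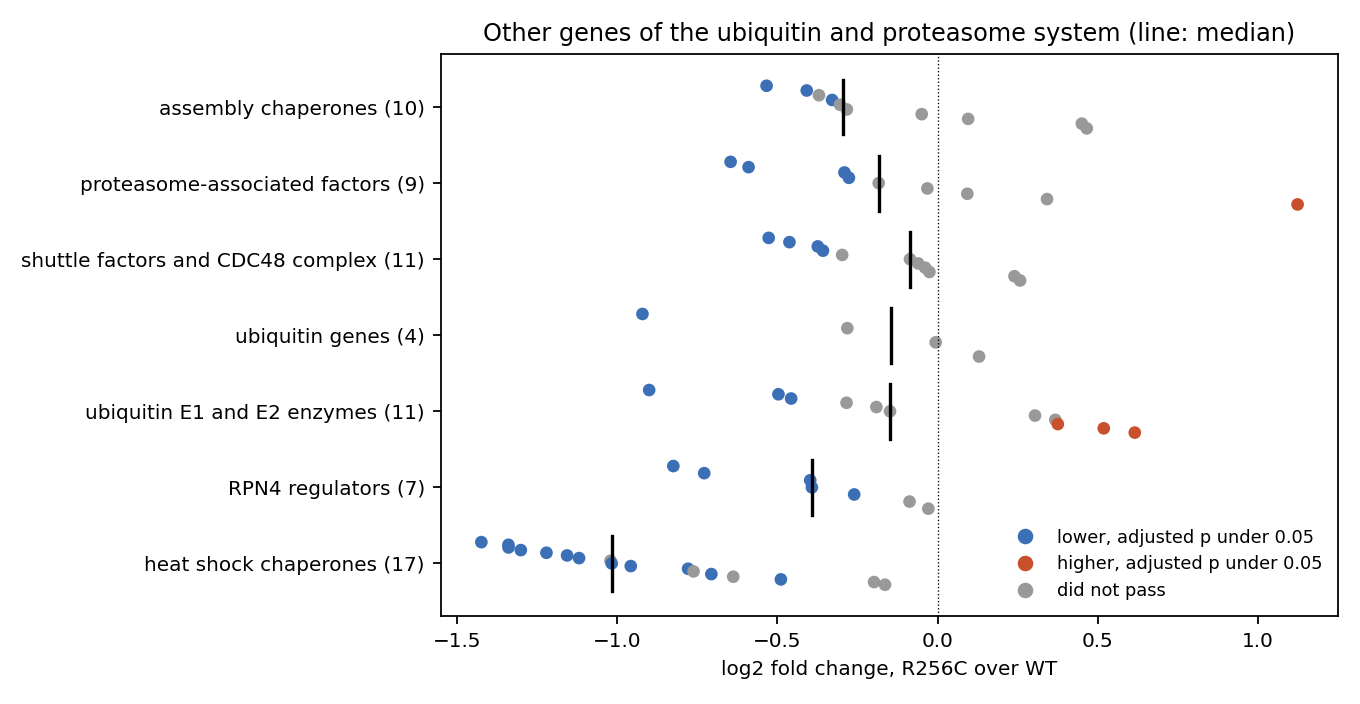
Log2 fold change of R256C over WT for the other genes of the ubiquitin and proteasome system and for heat shock chaperones, by list with the number of genes in brackets; a line marks the median, and blue, red and grey mark lower, higher and not passed. The heat shock median is -1.02, that of the RPN4 regulators -0.39, and the red point of the associated factors is TMC1.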

How the data were processed

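The deposited table holds raw counts of reads per gene for 6 libraries made with a stranded poly(A) kit, per the labels' protocols. Per the submitters' processing notes the authors used TopHat, HTSeq, DESeq and build R64; versions, and whether counting used the strand, were not given in the sources used here, so reads antisense to a gene cannot be told apart. The 5 summary rows were left out; reads outside genes were 3.15 to 4.07% and ambiguous reads 7.43 to 8.13% of uniquely placed reads, and alignments that were not unique were counted apart (53.1 to 57.2% of all counted entries, summary rows included). Locus tags matched RefSeq R64 for 6048 rows; no member overlapped another gene there, and rows without a match could not be checked.

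Counts were filtered (filterByExpr), scaled by TMM and tested in R 4.3.3 with edgeR 4.0.16 across 6337 genes, genotype being the only term, with Benjamini-Hochberg adjustment and a threshold of 0.05. SE is the log2 fold change over the root of F. Alternatives used DESeq2 1.42.0, limma 3.58.1, other scalings and filters, left-out libraries and a replicate block. The test was run on simulated data first. Replicates of a strain differed by more than counting error (chi-square per degree of freedom at least 7.03). The value was 152 between WT replicates 1 and 2, 78.5 between 2 and 3, and 14.5 between 1 and 3. Between R256C libraries it was 7.03 to 14, and between strains 119 to 237. WT replicates 1 and 2 thus differed within the range seen between strains. Promoters and coding lengths came from RefSeq R64. P-values set the difference between strains against the spread among 3 cultures per strain. They do not cover the spread between independent isolates, whose number was not stated.

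Members, lists and tests were chosen with earlier results of these data known. The rule for named genes took RPN4, the 2 largest falls and the highest value of each ring, base and lid, and the 3 smallest p and counter-movers of each other list; regulators and ubiquitin genes were named in full. Remaining members, NAS2, TMA17, UFD1, UFD3, UBC13, HSP42 and the neighbours and genes with the element, were named after their values were seen. UFD3 is listed as DOA1 in RefSeq.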

Additional observations from a re-analysis of the deposited data

How the results depend on the processing

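The same 16 subunit genes were lower with DESeq2 size factors, no filter, a filter at 10 CPM, DESeq2 and limma-voom, and 13 of them with library totals alone. With 1 library left out 9 to 18 of the 33 were lower; RPT6 joined without WT replicate 1, which lost RPN6, and PRE4 and RPN1 joined without WT replicate 2. The count called higher moved from 0 to 1 with library totals alone, a filter at 10 CPM and DESeq2, and to 0 to 3 with 1 library left out. Library totals raised the median of all genes from -0.01 to 0.09 and the share of calls that were higher from 49.8% to 64.9%. They moved the core median to -0.16, the base median to -0.30 and the lid median to -0.22. With 1 library left out the medians were -0.33 to -0.13 (core), -0.43 to -0.31 (base) and -0.35 to -0.29 (lid), RPN4 was 0.38 to 0.69, calls in the other lists were 23 to 53 (36 in all), and the difference in coefficient of variation per kb was -2.29 to -0.54 percentage points; the latter was added after the data were seen. The element share was 81.8% with 8 letters too. Some values near 0 changed sign. With library totals these were PUP1 (0.036), RPN2 (0.073), RPN3 (0.054), RPL40A (0.11) and MUB1 (0.066), and with a filter at 10 CPM RPN2 (0.0048) and RPL40A (0.021), which was 0.043 with limma-voom. With 1 library left out the ranges spanned 0 for PRE8 (-0.31 to 0.18), PRE9 (-0.086 to 0.16), PRE10 (-0.40 to 0.0080), PUP3 (-0.068 to 0.26), PRE1 (-0.32 to 0.10), RPN1 (-0.24 to 0.077), RPN2 (-0.069 to 0.013), RPN13 (-0.056 to 0.29), RPL40A (-0.16 to 0.24), RPS31 (-0.073 to 0.55), YAP1 (-0.21 to 0.015) and MUB1 (-0.060 to 0.0074). Left-out libraries leave 2 against 3 samples; the cause of these changes was not tested.

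Replicate numbers shared between strains showed no sign of pairing: deviations from the strain means correlated at -0.0834, -0.0632 and -0.0809 for numbers 1, 2 and 3 across genes. Because WT replicate 2 stood apart from the other WT libraries, these values cannot decide whether libraries of a number shared a batch. With the number as a replicate block, 15 subunit genes were lower, RPN10 being lost, and 0 higher, RPN4 was at 0.56, the core, base and lid medians were -0.24, -0.40 and -0.32, RPL40A turned to 0.030, and 1217 genes were higher and 1214 lower in all.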
